A study of Homo sapiens with 24 samples.

Results

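The step from day 1 to day 3 of TAp63 induction was examined in TYUC-1, a human cancer cell line of neuroendocrine esophageal carcinoma. It is described by 6 of the 24 RNA sequencing libraries of the series, the 3 of day 1 and the 3 of day 3 of the line that carries inducible TAp63, chosen by their titles. Day 1 cells had doxycycline at 1 µg/ml for 1 day and the vehicle DMSO for the other 5 days of a 6 day course, and day 3 cells had 3 days of each. The genotype label of both groups is i-TAp63, cells were kept in suspension in medium with serum, and the sources used here do not say whether the line is 1 clone. According to a treatment label EPZ-6438, which blocks the EZH2 methyltransferase, was present for the same number of days, while titles and induction labels name p63 induction alone. Whether the inhibitor was given is not settled by the labels, so effects of longer induction and of a longer inhibitor treatment cannot be told apart.

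TP63 encodes a transcription factor of the p53 family that specifies the basal layer of stratified epithelia such as the esophageal lining. The TA isoforms start at an upstream promoter and carry a transactivation domain at the N terminus, while ΔN isoforms start within the gene and dominate in basal keratinocytes. Above the basal layer of the esophagus cells exchange basal keratins for KRT13 and KRT4 and make small proline-rich proteins, S100 proteins and kallikrein proteases, many of them encoded in gene clusters that switch on together. A comparison of day 3 with day 1 shows what followed once the induced factor was already abundant.

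The 6 libraries held 7224138 to 22019974 counts. Replicate 3 of day 1 stood apart from the other 5 by gene length: across 12950 genes the Spearman correlation of length with the level relative to the other 11 libraries of the line was 0.417 there, against -0.284 to 0.0126 in the other 5. Outside the days compared, day 0 replicate 3 was also high at 0.335, and it was kept in the fit of 12 libraries. Within the pair of replicate 3 the shortest 25% of genes had a median log2 change of 0.225 and the longest 25% one of -0.163, whereas these medians were between 1.16e-05 and 0.025 in the pairs of replicates 1 and 2. Results are therefore also given without day 1 replicate 3. A first principal component with 38.9% of the variance separated the replicate numbers, and libraries of the same number deviated together, so a fit with the replicate number as a block is given beside the fit without it. HBG2, a fetal globin, and VIM, a mesenchymal intermediate filament, followed the replicate number: HBG2 stood at 13.4, 5.39 and 0.658 CPM (CPM are TMM-adjusted counts scaled to a common library size) in replicates 1, 2 and 3 of day 1 and at 29.7, 6.91 and 0.515 CPM at day 3. Of the neuroendocrine markers SYP was at 3.73 to 5.29 CPM, while NEUROD1 (1.27 to 3.001 CPM), CHGA (0.318 to 0.624 CPM) and INSM1 (0.129 to 0.781 CPM) were low. POU2F3, the master factor of tuft cells, stood at 144 to 204 CPM. In such bulk samples fewer cells of a type and less RNA per cell cannot be told apart.

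**Figure D1:**
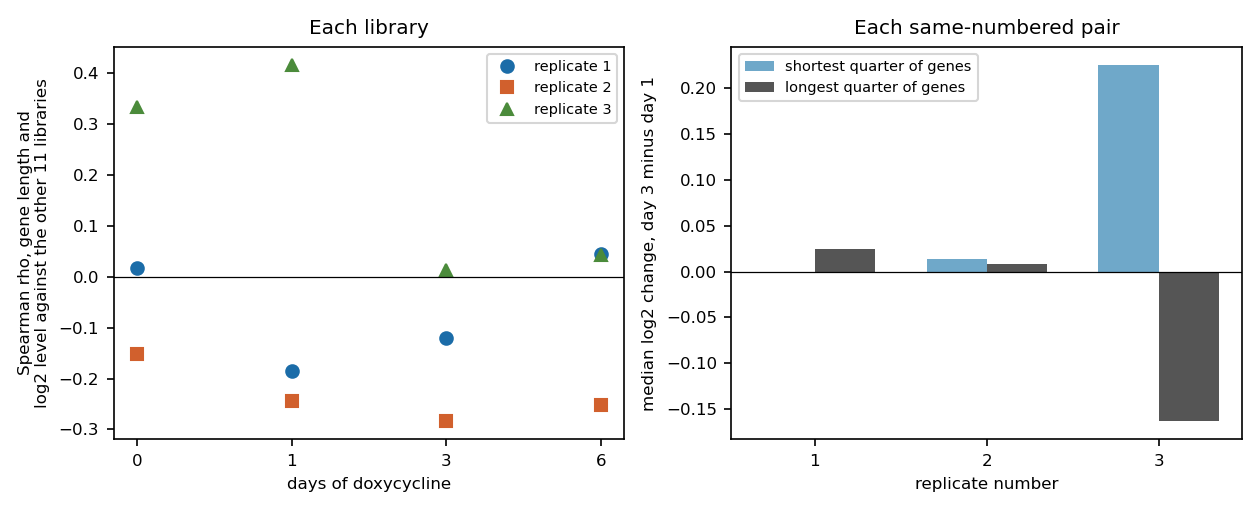
Left, for each of the 12 TAp63-line libraries, the Spearman correlation across 12950 genes between gene length and the log2 level relative to the other 11 libraries, by days of doxycycline. Right, the median log2 change from day 1 to day 3 of the shortest and longest 25% of genes in each same-numbered pair. Replicate 3 of day 1 stands highest at 0.417, followed by replicate 3 of day 0 at 0.335. In the pair of replicate 3 short genes lie at 0.225 and long genes at -0.163.

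Between day 1 and day 3 the response was made mostly of rises. EdgeR's quasi-likelihood test called 22 of 15056 genes at a Benjamini-Hochberg adjusted p under 0.05 (0.146%), 21 higher at day 3 (0.139%) and 1 lower (0.00664%), and 20 of the 21 stood at least 2-fold higher. With the replicate number as a block it called 290 genes (1.93%), 246 higher (1.63%) and 44 lower (0.292%), among them all 22, and 70 of the higher and 1 of the lower differed at least 2-fold. The counts without day 1 replicate 3 were 9 genes without the block (0.0587%) and 220 with it (193 higher, 1.26%, and 27 lower, 0.176%, of 15343), all 22 among these too. Counts without the block also fell to 7 without day 3 replicate 2 and 8 without day 3 replicate 3. The series calls its replicates biological without saying how cultures were kept apart, and p-values rest on how far these libraries differ. Over all tested genes the median log2 change stood at 0.0057.

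**Figure D2:**
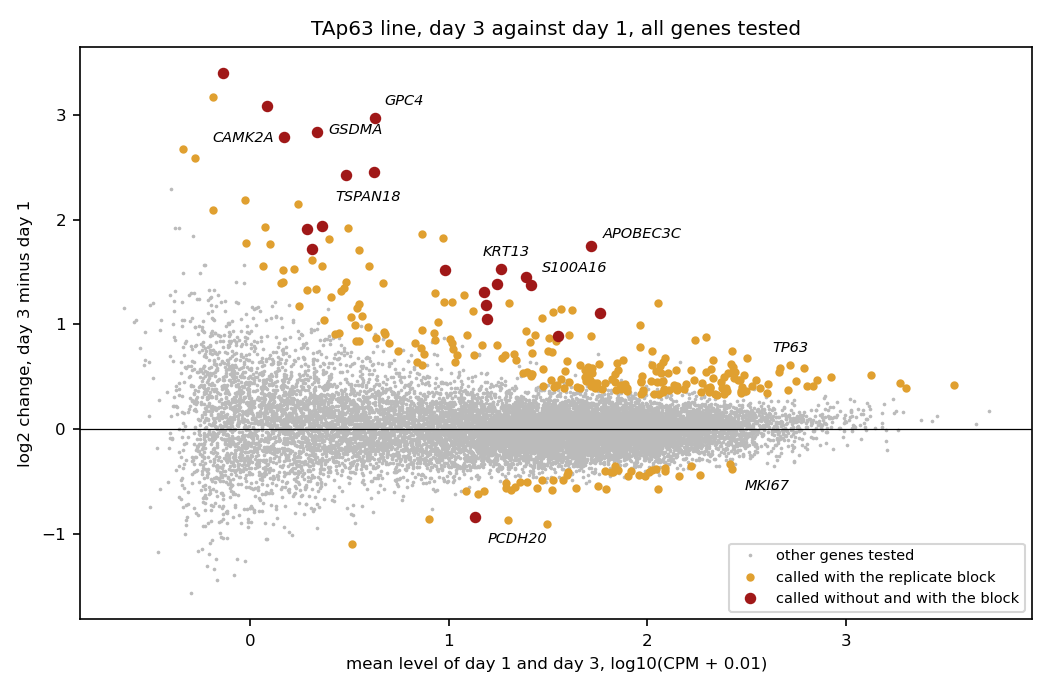
Log2 change from day 1 to day 3 of all 15056 genes tested (vertical axis) against the mean level of both days on a log10 axis of CPM + 0.01. Red points are the 22 genes called without and with the replicate block and orange points the others called with it. Most coloured points lie above 0, and of the 44 lower genes 1 lies at least 2-fold below it.

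TP63 itself was already high on day 1. Its level (hg38, chromosome 3, 189596746 to 189897279) was 2.94, 2.9 and 2.98 CPM at day 0, 372, 417 and 327 CPM at day 1 and 454, 598 and 626 CPM at day 3. Every day 3 library was above every day 1 library, and day 6 followed at 613, 694 and 665 CPM. The log2 change from day 1 to day 3 was 0.59 ± 0.132 and missed the threshold without the block (edgeR adjusted p = 0.149), where with it TP63 rose (log2 change 0.58 ± 0.0954, edgeR adjusted p = 0.00199). Beside it, the change from day 0 to day 1, which shares the day 1 libraries, was 6.98 (edgeR adjusted p = 1.20e-10). Reads over the whole gene were summed, so induced and endogenous transcripts and the isoforms are 1 value. The microRNA gene MIR944 lies within it.

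The 12 largest called rises and the 5 falls named here were picked among genes whose libraries did not overlap between the days. For these genes the lack of overlap is a condition of their choice. Among the largest rises of genes above 2 CPM was that of GPC4, a glypican that carries heparan sulfate at the cell surface (chromosome X, 133300103 to 133415489). It went from 0.39, 1.45 and 0.79 CPM at day 1 to 6.55, 8.0 and 8.24 CPM at day 3 (log2 change 2.98 ± 0.364, edgeR adjusted p = 0.00615). All 3 day 3 libraries stood far above all 3 day 1 libraries, and day 6 was higher again at 19.4, 21.8 and 18.3 CPM. GSDMA, a pore-forming gasdermin of skin (chromosome 17, 39963004 to 39977768), went from 0.312, 0.609 and 0.658 to 4.37, 3.59 and 3.47 CPM (log2 change 2.84 ± 0.294, edgeR adjusted p = 0.00191). Its day 6 libraries, at 2.87, 3.95 and 3.63 CPM, overlapped those of day 3. CAMK2A, a calcium/calmodulin-dependent kinase best known from neurons (chromosome 5, 150219491 to 150290130), went from 0.469, 0.328 and 0.263 to 3.33, 2.0 and 2.45 CPM (log2 change 2.79 ± 0.399, edgeR adjusted p = 0.0169). At day 0 it had been at 0.618, 0.194 and 0.585 CPM, so the libraries of days 0 and 1 lay together and below those of day 3.

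SLC16A12, a monocarboxylate transporter that carries creatine (chromosome 10, 89430299 to 89535594), had 0 counts in all day 0 libraries and 0.234, 0.375 and 0 CPM at day 1. By day 3 its libraries held 1.87, 2.41 and 2.32 CPM, 89 counts against 11 (log2 change 3.09 ± 0.452, edgeR adjusted p = 0.0273). Its value is uncertain because the antisense gene SLC16A12-AS1 overlaps it and strand was not counted. TSPAN18, a tetraspanin membrane protein (chromosome 11, 44726962 to 44932423), went from 1.09, 0.89 and 0.79 to 5.51, 4.37 and 5.53 CPM (log2 change 2.43 ± 0.37, edgeR adjusted p = 0.0201) and stood at 11.5, 12 and 10.7 CPM at day 6. It shares part of its span with TP53I11. COL19A1, a fibril-associated collagen of basement membrane zones (chromosome 6, 69866556 to 70212467), rose in steps, from 0.927, 1.4 and 1.33 CPM at day 0 to 3.36, 5.62 and 5.92 at day 1 and 15.4, 14.7 and 12.2 at day 3 (log2 change 1.52 ± 0.201 from day 1 to 3, edgeR adjusted p = 0.00856). No library of one day overlapped those of the next earlier day.

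APOBEC3C, a cytidine deaminase of the antiviral APOBEC3 family (chromosome 22, 39014257 to 39020352), had the lowest adjusted p of all genes. It stood at 22.6, 24.1 and 24.8 CPM at day 1 and 76.3, 82.9 and 81.5 CPM at day 3 (log2 change 1.75 ± 0.158, edgeR adjusted p = 0.000758), a clear gap with little spread on either side. At day 0 it was at 15.3, 14.1 and 19.4 CPM and at day 6 at 56.7, 86.1 and 67.5 CPM. ALPK2, an alpha kinase (chromosome 18, 58481250 to 58629091), went from 0.932 ± 0.234 to 3.15 ± 0.204 CPM (SD, n = 3; log2 change 1.72 ± 0.297, edgeR adjusted p = 0.0439), with a small nucleolar RNA gene, SNORA108, within it. The uncharacterised loci LOC101928882, LOC101928841 and LOC100506790 rose with log2 changes of 2.45, 1.94 and 1.91 (edgeR adjusted p = 0.0385, 0.0412 and 0.0282), each without overlap between the days, as their choice required.

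The other called genes, named after their values were seen apart from AGR2 and S100A16, were all above 5 CPM before induction except LINC02154. AGR2, a disulfide isomerase of secretory epithelia (chromosome 7, 16791811 to 16804999), stood at 11.4, 11.3 and 11.9 CPM at day 0, 10.3, 9.51 and 9.48 CPM at day 1 and 20.9, 29.8 and 25.5 CPM at day 3. Every day 1 library lay a little below every day 0 library, and every day 3 library above both (log2 change from day 1 to 3 1.38 ± 0.177, edgeR adjusted p = 0.00798). TMEFF2, a transmembrane protein with follistatin domains, went from 13.5, 16.8 and 12.6 to 47.3, 34.1 and 31.1 CPM (log2 change 1.37 ± 0.179, edgeR adjusted p = 0.00811). HTR3E, a subunit of the serotonin-gated ion channel, went from 35.8, 46.1 and 27.3 to 74.3, 86.9 and 76.2 CPM (log2 change 1.11 ± 0.161, edgeR adjusted p = 0.0178), uncertain because HTR3E-AS1 overlaps it. A4GALT, the synthase of globotriaosylceramide (log2 change 1.31), SCML4, a polycomb-related protein (log2 change 1.19), OPCML, a cell adhesion molecule of the IgLON family (log2 change 1.05), and SELENBP1, a selenium-binding protein (log2 change 0.89), rose with edgeR adjusted p-values of 0.0195, 0.0195, 0.0406 and 0.0195. LINC02154, a long noncoding RNA below 2 CPM, went from 5 counts at day 1 to 55 at day 3 (edgeR adjusted p = 0.0258).

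**Figure D3:**
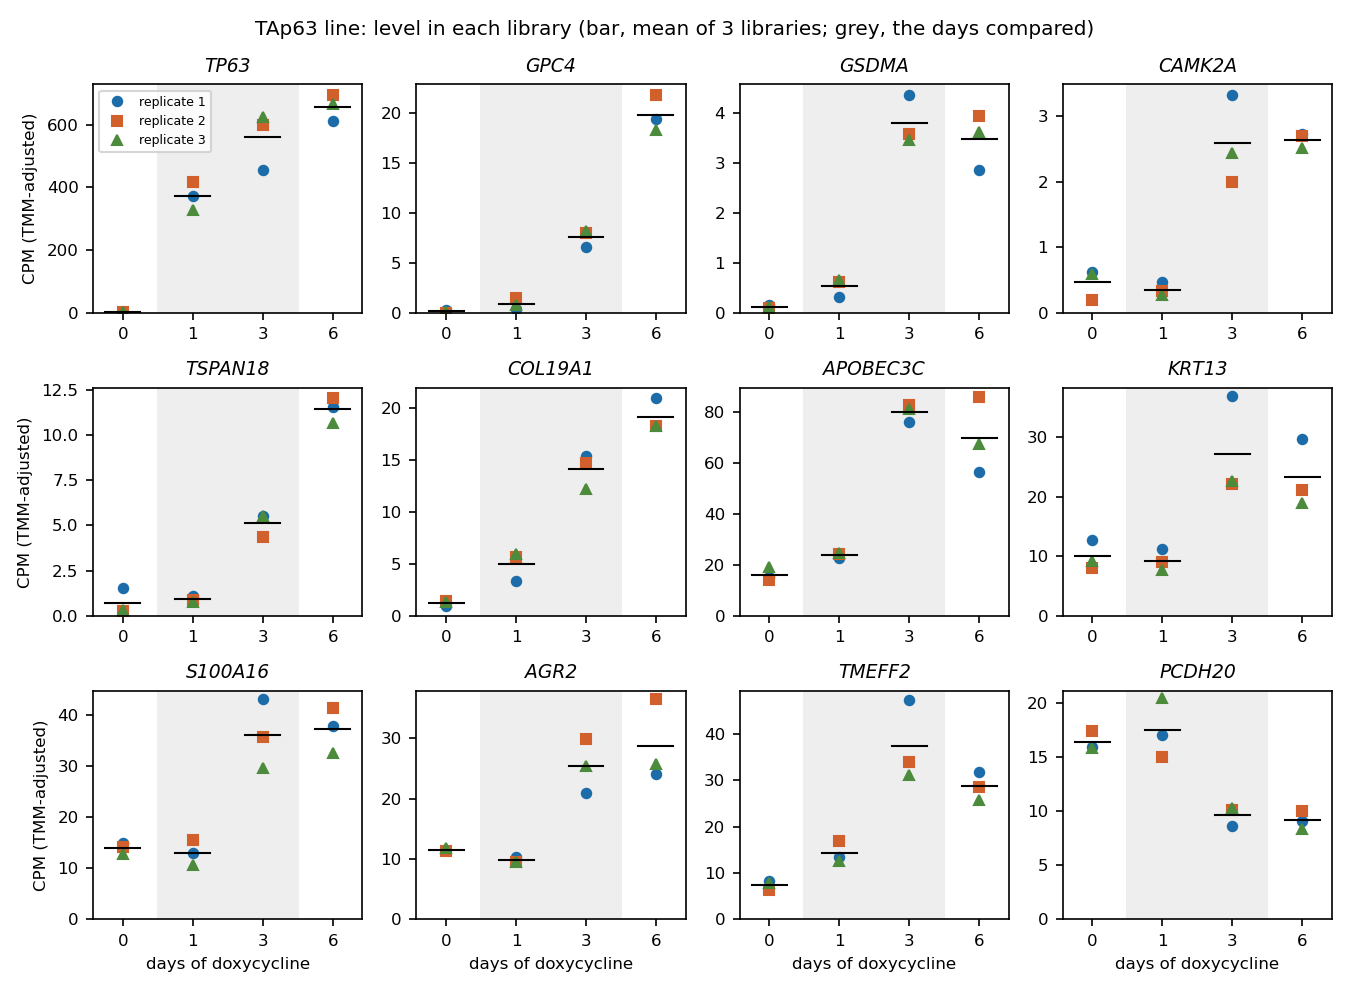
Level of 12 genes in each library of the TAp63 line in TMM-adjusted CPM (linear axes from 0) by days of doxycycline, with a bar at the mean of 3 libraries and grey behind the days compared. In each panel the day 3 libraries lie clear of the day 1 libraries, below them for PCDH20 and above them for the others. This was a condition for choosing GPC4, GSDMA, CAMK2A, TSPAN18, COL19A1, APOBEC3C, KRT13 and PCDH20. In KRT13, S100A16 and AGR2 the day 1 mean is no higher than the day 0 mean, whereas GPC4, COL19A1 and TP63 are already above day 0 on day 1.

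Calls without the block leaned on single libraries. AGR2, APOBEC3C, GPC4, GSDMA, S100A16 and TMEFF2 kept theirs whichever of the 6 libraries was left out. The other 16 of the 22 lost it in at least 1 case, KRT13 and ALPK2 without any 1 of the 6 (highest edgeR adjusted p = 0.163 and 0.288). With the block ALPK2 alone of the 22 lost it, without day 3 replicate 2 (edgeR adjusted p = 0.0552).

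The stretch before the transcription start was read for the binding sequence of the p53 family, for 15 of the 21 called higher genes present in the RefSeq promoter table of GRCh38.p14. The full response element of 20 bases was taken as 2 half-sites of 10 bases without a spacer, with the core C and G of each matched exactly. With at most 3 mismatches to the p53 consensus, on either strand, it was found in 0 of these 15 windows of 250 bases. Of all 35114 windows 0.914% held it. Elements with a spacer were not searched. An exact half-site of 10 bases was found in 3 of 15, in 14 of 183 genes called higher with the block (7.65%), and in 5.57% of all windows. The 3 genes are S100A16, SLC16A12 and HTR3E, whose windows hold it 235 to 226, 135 to 126 and 221 to 212 bases before the start. Half-sites are contained in full sites, and a match is a description of letters only. The windows of the first pair are shown 5′ to 3′ because they carry the half-site, in capitals, at the start of genes that rose, for S100A16 at chr1:153613138-153613387 and for SLC16A12 at chr10:89535595-89535844, both on the minus strand.
S100A16: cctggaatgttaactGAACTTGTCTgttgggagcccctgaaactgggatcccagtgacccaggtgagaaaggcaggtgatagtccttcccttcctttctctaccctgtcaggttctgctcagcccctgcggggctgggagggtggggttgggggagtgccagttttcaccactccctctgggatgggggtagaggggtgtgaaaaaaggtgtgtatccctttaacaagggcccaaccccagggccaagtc
SLC16A12: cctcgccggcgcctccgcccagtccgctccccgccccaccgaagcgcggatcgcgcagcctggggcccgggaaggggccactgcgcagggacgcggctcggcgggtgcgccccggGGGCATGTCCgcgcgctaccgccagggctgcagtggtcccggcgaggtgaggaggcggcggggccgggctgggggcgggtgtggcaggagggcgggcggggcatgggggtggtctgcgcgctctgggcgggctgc

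Genes of squamous differentiation stood higher at day 3 as a group. Of 57 listed 34 were tested, and 33 of these had a positive log2 change, with a median of 0.428 against 0.0057 over all genes. EdgeR called 2 of them higher and 0 lower (15 higher and 0 lower at an unadjusted p under 0.05, where 3.52% of all genes were higher and 2.31% lower, and 7 and 0 by DESeq2, which called 0.423% of all genes higher and 0.0322% lower), 12 and 0 with the block, and 9 and 0 with the block and without day 1 replicate 3. The median length of these genes is 5.83 kb, against 30.3 kb over all genes tested, and the part of gene length in their change was not tested. KRT13, the keratin of suprabasal esophageal cells (chromosome 17, 41500981 to 41505612), stood at 11.2, 9.0 and 7.77 CPM at day 1 and 36.9, 22.1 and 22.7 CPM at day 3 (log2 change 1.53 ± 0.249, edgeR adjusted p = 0.0297). It had been at 12.8, 8.03 and 9.3 CPM at day 0, so the libraries of days 0 and 1 overlapped and the rise fell between days 1 and 3. Replicate 1 was the highest at each day. KRT4, its pairing partner, was near absent at 0.442 and 0.714 CPM and was not called, and the basal keratin KRT5 had 17 and 21 counts, too few to be tested.

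S100A16, a small calcium-binding protein (chromosome 1, 153606883 to 153613137), stood at 12.9, 15.5 and 10.7 CPM at day 1 and 43, 35.7 and 29.6 CPM at day 3 (log2 change 1.45 ± 0.17, edgeR adjusted p = 0.00495). At day 0 it had held 15, 14.2 and 12.8 CPM, overlapping day 1. SPRR3, a small proline-rich protein crosslinked into the cell envelope, went from 3.9, 5.25 and 5.79 to 7.69, 15.2 and 13.4 CPM, and S100A14 from 6.87, 5.67 and 6.32 to 12.4, 14.6 and 16.9 CPM. Neither passed without the block (edgeR adjusted p = 0.149 and 0.108), and both rose with it (log2 change 1.30 ± 0.142 and 1.19 ± 0.186, edgeR adjusted p = 3.49e-05 and 0.00127). SPRR3 ran lower in replicate 1 than in the others on both days.

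Other members of the squamous list that rose with the block were KRT80, a keratin of differentiating cells (log2 change 0.74, edgeR adjusted p = 0.00354), EMP1, an epithelial membrane protein (log2 change 0.90, edgeR adjusted p = 0.00258), and the chloride channel family gene CLIC3 (log2 change 1.78, edgeR adjusted p = 0.0107). CSTB, a cysteine protease inhibitor, rose by 0.46 (edgeR adjusted p = 0.00719). Log2 changes in this paragraph are those of the fit without the block, while the adjusted p-values are those with it. With the block CLIC3 changed by 1.83 and KLK7 by 3.03. Of the kallikrein proteases of chromosome 19, 4 passed with the block. KLK11 went from 226 ± 40.3 to 329.6 ± 26.1 CPM (SD, n = 3; edgeR adjusted p = 0.0018), and KLK12, KLK10 and KLK7 had log2 changes of 0.62, 0.39 and 3.17 (edgeR adjusted p = 0.0365, 0.0361 and 0.0406). KLK7, which cleaves the bonds between shed keratinocytes, held 0, 0.234 and 0 CPM at day 1 and 1.46, 0.591 and 1.54 at day 3, 5 against 39 counts. With the block and 1 library left out, edgeR did not call KLK7 (without replicate 2 or 3 of day 1 or replicate 1 or 3 of day 3, adjusted p up to 0.189), KLK10 (without replicate 2 or 3 of day 1 or any day 3 library, adjusted p up to 0.236), KLK12 (without replicate 2 or 3 of day 1 or any day 3 library, adjusted p up to 0.219), CSTB (without replicate 3 of day 3, adjusted p = 0.0513) and CLIC3 (without replicate 2 of day 1 or replicate 2 of day 3, adjusted p up to 0.172). The fit without day 1 replicate 3 gave adjusted p-values of 0.103, 0.0689 and 0.122 in edgeR for these 3 kallikreins. KRT80, KLK10, KLK11, KLK12, CSTB, EMP1 and CLIC3 were chosen after their values were seen.

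S100 genes, which encode small calcium-binding proteins of a cluster on chromosome 1, stood higher at day 3. Of 11 tested members 10 had positive changes, with a median of 0.742, and in 5 every day 3 library lay above every day 1 library (5.01% of all genes did so). EdgeR called 1 higher without the block, 7 with it, and 6 with it and without day 1 replicate 3. Of all genes it called 0.139%, 1.63% and 1.26% higher in these 3 fits. These genes are short, with a median length of 4.5 kb, and S100A14 and S100A16 stand in the squamous list as well. S100A10, the annexin A2 partner, went from 5.0, 9.75 and 5.79 to 15.8, 18.3 and 17.1 CPM, and S100A13, which takes part in secretion without a signal peptide, from 30.9, 46.3 and 32.7 to 63.1, 74.8 and 65.9 CPM. On both days replicate 2 was the highest, and the days did not overlap. In the fit without the block S100A11, S100A6 and S100A4 followed with log2 changes of 0.85, 0.74 and 0.52. With the block their changes were 0.84, 0.66 and 0.50 (edgeR adjusted p = 0.00659, 0.00433 and 0.0366). For S100A10 and S100A13 the edgeR adjusted p-values with the block were 8.63e-05 and 0.000105. S100A6 held 131, 288 and 183 CPM at day 1 and 157, 488 and 361 CPM at day 3, so it differed more between replicates than between the days. Single libraries decided the edgeR call with the block for S100A6 (without replicate 2 of day 3, adjusted p = 0.0586) and S100A4 (without replicate 2 or 3 of day 1 or replicate 2 or 3 of day 3, adjusted p up to 0.256). LOC101928034 overlaps S100A4. S100A13 overlaps CHTOP and S100A1. These 5 were chosen after their values were seen.

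**Figure D4:**
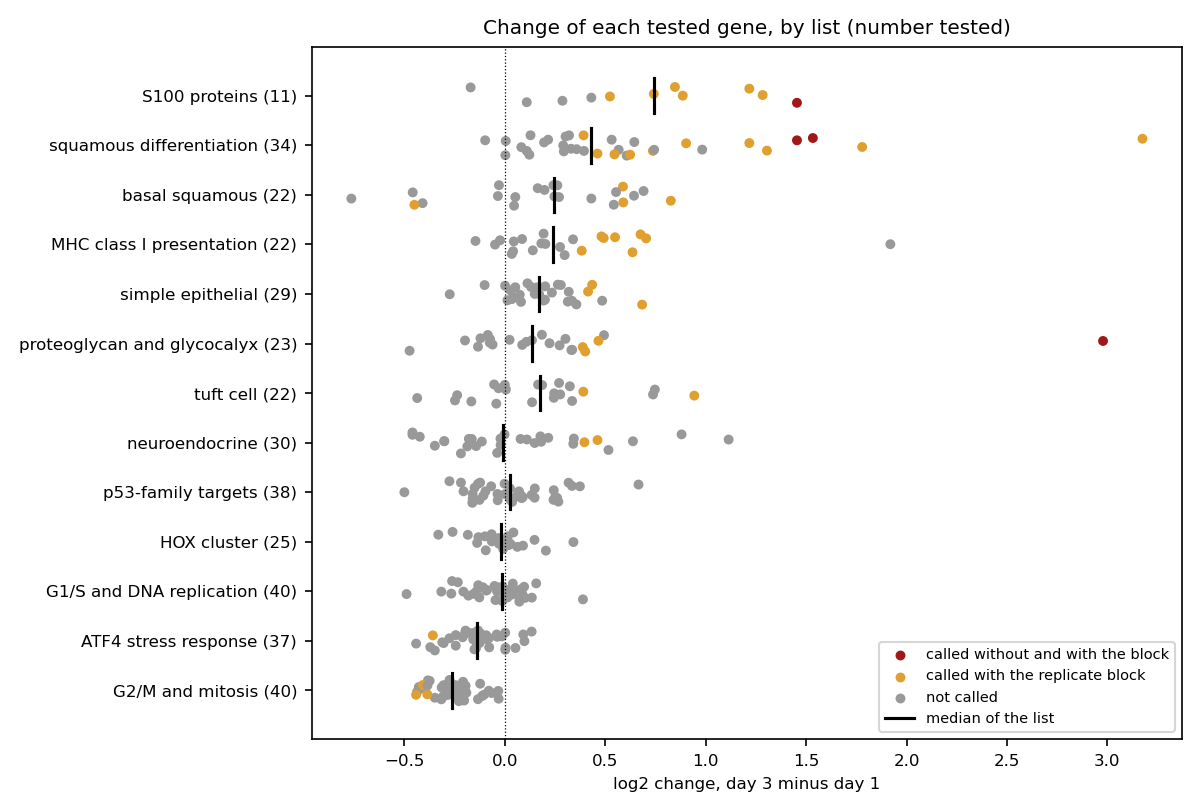
Log2 change from day 1 to day 3 of each tested member of 13 gene lists (horizontal axis), with a black bar at the list's median. Red points were called without and with the replicate block and orange points with it. The S100 list has the highest median at 0.742 and the G2/M list the lowest at -0.262.

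Basal squamous genes gave calls in both directions with the block. Of 22 tested edgeR called 3 higher and 1 lower with it, where it called 1.63% of all genes higher and 0.292% lower. One of the 3 is TP63, the induced gene itself, which says nothing about the other members. Without the block edgeR called 0 of the list, and DESeq2 called 1 higher, again TP63. At an unadjusted p under 0.05, 4 were higher and 1 lower, where 3.52% of all genes were higher and 2.31% lower. The median of the list was 0.245. Besides TP63 the higher genes were KRT15, a keratin of basal and progenitor cells, from 8.9, 7.31 and 6.06 to 16.3, 12.8 and 10.7 CPM (edgeR adjusted p = 0.00239 with the block), and AQP3, a water and glycerol channel, from 225, 229 and 191 to 234, 363 and 375 CPM (0.0364). AQP3 hardly differed between the days in replicate 1. In fits with the block that leave out 1 library, edgeR no longer called AQP3 (without replicate 2 or 3 of day 1 or replicate 2 or 3 of day 3, adjusted p up to 0.266). The lower gene was ITGA6, the α6 integrin of hemidesmosomes, at 171, 134 and 196 CPM at day 1 and 117, 126 and 122.8 at day 3. Its log2 change was -0.45 without the block (edgeR adjusted p = 0.419) and -0.43 with it (edgeR adjusted p = 0.0332). ITGA6 lost the call without replicate 3 of day 1 or replicate 1 or 3 of day 3, adjusted p up to 0.221 (edgeR). With the block and without day 1 replicate 3, its highest library, it stood at -0.30 (edgeR adjusted p = 0.137), and ITGA6-AS1 overlaps it. TRIM29, a basal marker, stood at 25.9, 16.4 and 17.4 and 24.2, 31.1 and 38.1 CPM and just missed the threshold with the block (edgeR adjusted p = 0.0523). KRT15 and AQP3 were chosen after their values were seen.

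Matrix and cell surface genes gave further rises with the block, named after their values were seen except GPC4 and FN1. FN1, which encodes fibronectin, went from 24.6, 23 and 27 to 51.7, 41.6 and 40.3 CPM (log2 change 0.85, edgeR adjusted p = 0.108 without the block and 0.000557 with it). Day 6 was higher still at 80.5, 67.2 and 54.7 CPM. HSPG2, which encodes the basement membrane proteoglycan perlecan, went from 23.4, 19.7 and 14.2 to 47, 39.6 and 33.8 CPM (log2 change 1.06, edgeR adjusted p = 0.000319 with the block), and AGRN, agrin, rose by 0.52 (0.00218). HSPG2 overlaps LDLRAD2. Of the 23 hemidesmosome and basement membrane genes, HSPG2, AGRN and the tetraspanin CD151 (log2 change 0.46, 0.00824) were the higher ones and ITGA6 the lower one with the block, and edgeR called 0 without it (3 higher and 3 lower at an unadjusted p under 0.05, 0 by DESeq2). CD151 was not called without day 3 replicate 2 (edgeR adjusted p = 0.0586). Among 23 proteoglycan and glycocalyx genes, GPC4 was called without the block and 4 with it, adding the syndecans SDC2 (log2 change 0.47, edgeR adjusted p = 0.00258) and SDC1 (log2 change 0.40, 0.0315) and the hyaluronan receptor CD44 (log2 change 0.39, 0.00838). The list's median was 0.135. For both lists, the shares over all genes were 0.139% called higher without the block, and 1.63% higher and 0.292% lower with it. At an unadjusted p under 0.05, 3.52% of all genes were higher and 2.31% lower. Among fits with the block and without 1 library, the edgeR call was lost for SDC1 (without replicate 2 or 3 of day 1 or any day 3 library, adjusted p up to 0.22) and CD44 (without replicate 2 of day 1 or replicate 2 of day 3, adjusted p up to 0.081).

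Genes of simple epithelium stood mostly a little higher at day 3. Of 29 tested 27 had positive changes, with a median of 0.17. In 6 of them every day 3 library lay above every day 1 library (5.01% of all genes did so). With the block edgeR called 3 higher and 0 lower, where it called 1.63% of all genes higher and 0.292% lower. Without the block it called 0 of the list, and DESeq2 called 1 higher. At an unadjusted p under 0.05, 4 were higher and 1 lower, where 3.52% of all genes were higher and 2.31% lower. KRT19, a keratin of ducts and simple epithelia, went from 281, 252 and 197 to 452, 368 and 354 CPM (log2 change 0.68, edgeR adjusted p = 0.000101 with the block) and KRT7 from 468, 323 and 248 to 604, 429 and 372 CPM (log2 change 0.43, 0.00824). For KRT19 the days did not overlap, while for KRT7 they did and each number rose within its pair. SPINT2, an inhibitor of membrane proteases, rose by 0.41 (edgeR adjusted p = 0.038 with the block). With the block and 1 library left out, edgeR did not call SPINT2 (without replicate 2 or 3 of day 1 or replicate 2 or 3 of day 3, adjusted p up to 0.259) and KRT7 (without replicate 1 of day 3, adjusted p = 0.0627). KRT7-AS overlaps KRT7. Among 8 columnar markers AGR2 was the called gene in both fits, and among 10 desmosome genes the median was 0.0481. KRT19, KRT7 and SPINT2 were chosen after their values were seen.

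Antigen presentation genes showed a modest rise with the block. Of 22 tested MHC class I pathway genes 19 had positive changes, with a median of 0.238. EdgeR called 0 without the block (8 higher and 0 lower at an unadjusted p under 0.05, 3 higher by DESeq2), 7 higher with it and 3 higher with it and without day 1 replicate 3. B2M, the invariant chain of MHC class I molecules, stood at 369, 376 and 383 CPM at day 1 and 531, 581 and 537 CPM at day 3. The libraries of each day lay close together and the days did not overlap (log2 change 0.55 ± 0.105, edgeR adjusted p = 0.0698 without the block and 0.000994 with it). The heavy chains HLA-C and HLA-B had log2 changes of 0.68 and 0.49 (edgeR adjusted p = 0.0055 and 0.0174 with the block). HLA-C held 118, 96.7 and 68.3 CPM at day 1 and 150.2, 154 and 149 CPM at day 3. PSMB8, an immunoproteasome subunit (log2 change 0.70), and the peptide loading factors TAPBPL (log2 change 0.48) and TAPBP (log2 change 0.38) rose with the block too. Single libraries decided the edgeR call with the block for HLA-B (without replicate 2 or 3 of day 1 or replicate 2 or 3 of day 3, adjusted p up to 0.16), HLA-C (without replicate 2 or 3 of day 3, adjusted p up to 0.0586), PSMB8 (without replicate 2 or 3 of day 1 or replicate 2 or 3 of day 3, adjusted p up to 0.146), TAPBP (without replicate 2 or 3 of day 1 or any day 3 library, adjusted p up to 0.174) and TAPBPL (without any day 3 library, adjusted p up to 0.101). HLA genes have near-identical copies and alternative loci in the annotation and their values are uncertain; those other than B2M were chosen after their values were seen. In the interferon response list of 27, IFI6, an interferon-induced mitochondrial protein, passed with the block (log2 change 1.08, edgeR adjusted p = 0.00875), though not without replicate 2 of day 1 or replicate 2 of day 3, adjusted p up to 0.0868. The median of that list was 0.0801, and without the block edgeR called 0 of it (3 higher at an unadjusted p under 0.05, 0 by DESeq2).

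Falls were few and small. PCDH20, a protocadherin adhesion molecule (chromosome 13, 61409686 to 61415522), was the called one without the block. It stood at 15.9, 17.5 and 15.8 CPM at day 0, 17, 15 and 20.5 CPM at day 1 and 8.63, 10.1 and 10.3 CPM at day 3, so it was level over the first day and then fell by 0.84 on the log2 scale (SE 0.148, edgeR adjusted p = 0.0493). Without any 1 of 5 libraries, all but day 1 replicate 2, the call was lost (highest edgeR adjusted p = 0.288), and with the block it held throughout (at most 0.0295). TUBE1 (ε-tubulin, a centriole protein), FAM157A, YOD1 (a deubiquitinase) and PAQR3 (a Golgi membrane protein) had the next lowest p-values among falls above 2 CPM without overlap between the days. These 4 passed with the block, with log2 changes of -0.54, -0.91, -0.51 and -0.45 (edgeR adjusted p = 0.00354, 0.00386, 0.0182 and 0.0164). FAM157A went the other way earlier: it stood at 10.8, 7.06 and 7.34 CPM at day 0, 34.4, 48.1 and 39.2 at day 1 and 21.9, 21.7 and 21.4 at day 3. TUBE1 overlaps CCN6, PAQR3 overlaps BMP2K, and FAM157A has several loci. In fits with the block that leave out 1 library, edgeR no longer called YOD1 (without replicate 3 of day 1 or replicate 1 or 3 of day 3, adjusted p up to 0.158), FAM157A (without replicate 2 of day 1 or replicate 2 of day 3, adjusted p up to 0.0757) and PAQR3 (without any day 3 library, adjusted p up to 0.161).

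Cell cycle genes of G2 and mitosis all had negative changes. Of 40 tested 0 had a positive log2 change, with a range of -0.442 to -0.0308 and a median of -0.262, and in 13 the day 3 libraries lay below all day 1 libraries (4.49% of all genes did so). EdgeR called 0 without the block (13 lower and 0 higher at an unadjusted p under 0.05, where 2.31% of all genes were lower, and 0 by DESeq2) and 3 lower with it: KIF23, a kinesin of cytokinesis (log2 change -0.44, edgeR adjusted p = 0.0292), NEK2, a centrosomal kinase (log2 change -0.41, 0.0292), and the proliferation marker MKI67 (log2 change -0.39, 0.0359). MKI67 stood at 357, 270.1 and 286 CPM at day 1 and 303, 218 and 177 CPM at day 3, lower in each pair, with overlap between the days. The calls were lost without several single libraries, KIF23 without replicate 2 or 3 of day 1 or any day 3 library, adjusted p up to 0.241, NEK2 without replicate 2 or 3 of day 1 or any day 3 library, adjusted p up to 0.234 and MKI67 without replicate 2 or 3 of day 1 or replicate 1 or 3 of day 3, adjusted p up to 0.298. Without day 1 replicate 3 all 3 missed the threshold with the block (edgeR adjusted p = 0.0985, 0.0886 and 0.117), and 0 of the list were called. AURKA, a spindle kinase, stood at 111 ± 2.52 and 96.6 ± 3.84 CPM (SD, n = 3) and was not called in either fit. The 40 G1/S and DNA replication genes had a median of -0.0119, and edgeR called 0 without and with the block (1 higher and 1 lower at an unadjusted p under 0.05, 0 by DESeq2). KIF23, NEK2 and MKI67 were chosen after their values were seen.

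Targets of ATF4, the factor that answers amino acid shortage, gave 1 call. Their median over 37 tested genes was -0.139, with 1 called lower with the block, CEBPG, a partner of ATF4 (log2 change -0.36, edgeR adjusted p = 0.0282), and 0 without it (6 lower at an unadjusted p under 0.05, 1 lower by DESeq2). MTHFD2, a mitochondrial folate enzyme, stood at 637, 568 and 611 CPM at day 1 and 495, 492 and 483 CPM at day 3, without overlap, and just missed the threshold with the block (edgeR adjusted p = 0.0523). SLC4A5 overlaps it. Of 33 hypoxia and glycolysis genes, with a median of 0.109, edgeR called 0 without the block (3 higher at an unadjusted p under 0.05, 2 by DESeq2). NDRG1, a stress-induced protein, and EGLN3, an oxygen-sensing hydroxylase, passed with the block (log2 change 0.88 and 0.75, edgeR adjusted p = 0.0199 and 0.0102). NDRG1 held 155, 133 and 129 CPM at day 1 and 163, 284 and 324 CPM at day 3, so the rise was that of replicates 2 and 3. Both had been higher at day 0, NDRG1 at 342, 225 and 206 CPM and EGLN3 at 139.8, 114 and 102 CPM. Among fits with the block and without 1 library, the edgeR call was lost for CEBPG (without replicate 1 or 3 of day 1 or any day 3 library, adjusted p up to 0.186), NDRG1 (without replicate 2 or 3 of day 1 or replicate 2 or 3 of day 3, adjusted p up to 0.231) and EGLN3 (without replicate 2 of day 1 or replicate 2 or 3 of day 3, adjusted p up to 0.143). Without day 1 replicate 3 the block gave 3 ATF4 targets lower, where it called 0.176% of all genes lower. With all 12 libraries the block called 1.63% of all genes higher and 0.292% lower, and DESeq2 called 0.423% and 0.0322%. At an unadjusted p under 0.05, 3.52% of all genes were higher and 2.31% lower. CEBPG, NDRG1 and EGLN3 were chosen after their values were seen.

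Neuroendocrine and tuft cell genes showed no common shift. Over all genes edgeR called 1.63% higher and 0.292% lower with the block. At an unadjusted p under 0.05 without the block, 3.52% of all genes were higher and 2.31% lower. The median over 30 tested neuroendocrine genes was -0.0113, and edgeR called 0 without the block (3 higher and 1 lower at an unadjusted p under 0.05, 0 by DESeq2). With the block CPE, a prohormone processing enzyme, was among the higher genes (log2 change 0.46, edgeR adjusted p = 0.00409). NEUROD1 stood at 1.64, 1.26 and 2.5 and 1.98, 3.0 and 2.19 CPM and SYP at 3.75, 5.29 and 4.08 and 4.37, 3.77 and 3.73 CPM, each with overlapping days and not called. Among 22 tuft cell genes the median was 0.176, edgeR called 0 without the block (3 higher and 1 lower at an unadjusted p under 0.05, 0 by DESeq2) and 2 higher with it, the prostaglandin synthase PTGS1 (log2 change 0.94, edgeR adjusted p = 0.00354) and ANXA1 (log2 change 0.39, 0.0138). With the block and 1 library left out, edgeR did not call PTGS1 (without replicate 2 of day 1 or replicate 2 of day 3, adjusted p up to 0.0762) and ANXA1 (without replicate 2 of day 1 or replicate 1 or 2 of day 3, adjusted p up to 0.109). POU2F3 (log2 change 0.14 ± 0.13) and BMX, a Tec family kinase (log2 change -0.17 ± 0.155), were not called in either fit (edgeR adjusted p = 0.461 and 0.601 with the block). CPE, PTGS1 and ANXA1 were chosen after their values were seen.

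Further lists gave few calls over this step. Of 38 p53-family targets edgeR called 0 in either fit (1 higher and 1 lower at an unadjusted p under 0.05 without the block, 0 by DESeq2), with a median of 0.0256, and 2 lower with the block and without day 1 replicate 3. Of all genes 0.176% were called lower in that last fit. At an unadjusted p under 0.05 without the block, 3.52% of all genes were higher and 2.31% lower. CDKN1A, the cell cycle inhibitor p21, stood at 9.84, 10.3 and 8.03 CPM at day 1 and 12.7, 9.5 and 7.85 CPM at day 3, with overlap (log2 change 0.082 ± 0.183, edgeR adjusted p = 0.999), and the antisense gene DINOL overlaps it. EZH2, the methyltransferase that EPZ-6438 inhibits, stood at 200.2, 180.4 and 200.4 and 189, 161 and 148 CPM (log2 change -0.22 ± 0.127, edgeR adjusted p = 0.95 without and 0.225 with the block). EdgeR called 0 of 16 polycomb repressive complex 2 genes and 0 of 25 HOX cluster genes in either fit (1 and 0 at an unadjusted p under 0.05, 0 by DESeq2), with medians of -0.0953 and -0.0191. The same count of 0 held in both fits for desmosome, Wnt, cholesterol synthesis and apolipoprotein L genes (1, 1, 2 and 2 at an unadjusted p under 0.05, 0 by DESeq2). MYC stood at 364, 275 and 272 and 397, 329 and 332 CPM (log2 change 0.22 ± 0.146, edgeR adjusted p = 0.985), with overlapping days. VIM was at 9.22, 2.16 and 0.658 CPM at day 1 and 15.7, 3.41 and 0.643 CPM at day 3, following the replicate number, and was not called in either fit. Fibroblast, immune, endothelial and erythroid markers had 5, 8, 5 and 12 tested members, and edgeR called 0 in both fits (1, 1, 0 and 0 at an unadjusted p under 0.05, 0 by DESeq2). Summed over its 12 tested genes the erythroid list held 527.5 to 561 CPM at day 1 and 416.5 to 586 CPM at day 3. The fetal globins HBG1 and HBG2 stood at 0.129 to 12.2 and 0.515 to 29.7 CPM in these libraries.

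In 9 more lists edgeR called 0 genes without the block and 1 to 3 of each with it. At an unadjusted p under 0.05, 1 to 3 were higher and 0 to 2 lower in each, and DESeq2 called at most 1. The 16 mesenchymal genes and the 15 ion pumps and channels each had 3 higher. Of all genes 3.52% were higher and 2.31% lower at that unadjusted p, and edgeR called 1.63% higher and 0.292% lower with the block. HES1, the repressor at the end of the Notch pathway, went from 29.1, 29.8 and 33.7 to 46, 47.8 and 51.4 CPM without overlap (log2 change 0.65, edgeR adjusted p = 0.00606), 1 of 32 Notch genes. ALDH3A1, an aldehyde dehydrogenase of the NRF2 list of 26, went from 24.1, 17 and 14.1 to 33.2, 31.6 and 34.4 CPM (log2 change 0.83, edgeR adjusted p = 0.00197). ETV5, a transcription factor induced by growth factors, was lower in each pair, from 37.1, 53.2 and 41.2 to 19.9, 37.4 and 36.7 CPM (log2 change -0.49, edgeR adjusted p = 0.0176), 1 of 33 immediate early genes. In the cell death list of 27 the BCL2 relative BOK rose and the BH3-only gene HRK fell (log2 change 1.04 and -0.48, edgeR adjusted p = 0.0354 and 0.0174). The secretory pathway genes PDIA6, SDF2L1 and CRELD2 rose among 24 heat shock and unfolded protein genes (edgeR adjusted p = 0.0321, 0.0377 and 0.0377) and the chemokine gene CCL28 among 14 cytokine genes (0.0246). The calls for these last 4 and BOK were lost in 4 or 5 of the 6 fits that leave out 1 library, PDIA6 without replicate 2 or 3 of day 1 or replicate 1 or 3 of day 3, adjusted p up to 0.217, SDF2L1 without replicate 2 or 3 of day 1 or any day 3 library, adjusted p up to 0.272, CRELD2 without replicate 1 or 3 of day 1 or any day 3 library, adjusted p up to 0.262, CCL28 without replicate 2 or 3 of day 1 or replicate 2 or 3 of day 3, adjusted p up to 0.234 and BOK without replicate 2 or 3 of day 1 or replicate 2 or 3 of day 3, adjusted p up to 0.203 (edgeR). Single libraries decided the edgeR call with the block for HES1 (without replicate 2 of day 1 or replicate 3 of day 3, adjusted p up to 0.073), ETV5 (without replicate 2 of day 1 or replicate 1 or 2 of day 3, adjusted p up to 0.118) and HRK (without any day 3 library, adjusted p up to 0.0925). FN1 and S100A4 were the called genes of 16 mesenchymal ones, ALK of 23 growth factor receptors and ligands, and ATP1B2 and TRPM6 of 15 ion pumps and channels. These genes, other than FN1, ALK, ATP1B2 and TRPM6, were chosen after their values were seen.

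Some genes, such as SIPA1L2, TRPM6, ATP1B2, ZCCHC24, IL23R and ALK, had a larger log2 change from day 0 to day 1 than from day 1 to day 3. They are members of a list of 23 genes known from earlier results of these data to be higher at day 6, so their direction here is no independent evidence, and the values are a description. Of 22 tested, 4 were called without the block and 14 with it, all higher, with a median of 1.07. SIPA1L2, a Rap GTPase activator, kept climbing, from 0.155, 0.0968 and 0.0532 CPM at day 0 to 1.56, 3.75 and 2.11 at day 1, 8.42, 6.64 and 5.41 at day 3 and 14.6, 11.6 and 9.76 at day 6. TRPM6, a magnesium channel, went from 0.155, 0.145 and 0.106 CPM to 0.39, 1.64 and 1.18 at day 1 and 3.64, 4.46 and 3.6 at day 3, with day 6 little higher at 4.59, 5.83 and 5.3 CPM. For both, days 1 and 3 did not overlap, and both passed with the block (log2 change 1.37 ± 0.237 and 1.82 ± 0.269, edgeR adjusted p = 0.00284 and 0.000882) and not without it (0.109 and 0.0698).

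In a further set the day 1 libraries disagreed, with replicate 2 of day 1 at or near the level of day 3. ATP1B2, a β subunit of the sodium pump, stood at 24.1, 145 and 34.6 CPM in the 3 day 1 libraries, in order of their number, and at 145, 154 and 177 CPM at day 3. ZCCHC24, a zinc finger protein, stood at 11.6, 39.1 and 16.7 CPM at day 1 and 53.7, 47.7 and 51.5 CPM at day 3. IL23R, the interleukin 23 receptor, stood at 5.0, 36.8 and 12.2 CPM at day 1 and 22.5, 25.7 and 30.1 CPM at day 3. Replicate 2 was the highest of day 1 in each and in TP63 itself, at 417 CPM, while its levels at day 3 were like those of the other replicates. All 3 genes had risen from below these levels since day 0, from 11.6, 5.37 and 0.291 CPM, and their means at day 6 were 111, 41.8 and 13.3 CPM against 159, 50.9 and 26.1 CPM at day 3, differences that edgeR did not call. Between days 1 and 3 ATP1B2 and ZCCHC24 passed with the block (log2 change 1.43 ± 0.315 and 1.19 ± 0.234, edgeR adjusted p = 0.0206 and 0.00838) and IL23R did not (0.394). In fits with the block that leave out 1 library, edgeR no longer called ATP1B2 (without replicate 3 of day 1 or replicate 1 or 3 of day 3, adjusted p up to 0.141) and ZCCHC24 (without replicate 1 of day 3, adjusted p = 0.059). ALK, a receptor tyrosine kinase, stood at 1.72, 2.62 and 2.37 CPM at day 1 and 4.68, 4.87 and 3.86 CPM at day 3 and passed with the block (log2 change 0.997 ± 0.239, edgeR adjusted p = 0.035), though not without replicate 1 or 3 of day 1 or replicate 1 or 2 of day 3, adjusted p up to 0.251. LOC105374389 overlaps it. Of 13 genes known to be lower at day 6, edgeR called 0 without the block (4 lower at an unadjusted p under 0.05, 0 by DESeq2) and ITGA6 with it, and the others ranged in log2 change from -0.80 for ART3 to 0.35 for SLC1A7.

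The same step in the line with inducible ΔNp63 was compared as a difference of changes over 23 libraries, leaving out ΔNp63 day 1 replicate 3, which held 1530847 counts, so that ΔNp63 day 1 has 2 libraries. TP63 itself stood higher in the ΔNp63 line, at 721 and 576 CPM at day 1 and 1026, 769 and 801 CPM at day 3. In the same fit the TAp63 line held 371, 417 and 326 CPM and then 452, 597 and 625 CPM. Effects of the isoform and of the level of TP63 therefore cannot be told apart between the lines. EdgeR called 1 of 15783 genes (0.00634%), TGFBI, a matrix protein induced by TGF-β, which changed less in the TAp63 line. In the TAp63 line TGFBI held 1.71, 1.87 and 1.57 CPM at day 1 and 2.17, 2.09 and 3.21 CPM at day 3. In the ΔNp63 line it held 2.53 and 3.35 CPM at day 1 and 18.6, 21.5 and 18.4 CPM at day 3. The day 3 libraries of ΔNp63 stood above all others. The log2 changes were 0.46 and 2.71, a difference of -2.25 ± 0.302 (edgeR adjusted p = 0.00555). It was not called without TAp63 day 3 replicate 2, TAp63 day 1 replicate 2 or ΔNp63 day 1 replicate 1 (edgeR adjusted p = 0.0525, 0.0895 and 0.0756), nor with all 24 libraries (0.821).

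With the replicate block 3 genes differed (0.019%). Besides TGFBI they were SPRR3, which changed more in the TAp63 line (difference in log2 change 1.34 ± 0.224, edgeR adjusted p = 0.0187), and ARHGDIB, an inhibitor of small GTPase cycling, which changed less (difference in log2 change -0.59 ± 0.107, 0.0392). SPRR3 stood in the ΔNp63 line at 3.11 and 7.75 CPM at day 1 and 3.67, 6.37 and 6.77 CPM at day 3, level where the TAp63 line had risen in each pair. For KRT5 the difference was -2.31 ± 0.556 (edgeR adjusted p = 1.0, and 0.339 with the block), with 7.95, 7.71 and 6.96 CPM at day 3 of ΔNp63 against 0.621, 0.635 and 0.128 CPM at day 3 of TAp63. FXYD3, a regulator of the sodium pump, gave -1.91 ± 0.427 (1.0, and 0.0658 with the block). KRT13 changed by 1.53 with TAp63 and 2.08 with ΔNp63, a difference of -0.55 ± 0.382 that did not pass in either fit (edgeR adjusted p = 1.0 and 0.513). KRT5, FXYD3, KRT13, SPRR3 and ARHGDIB were chosen here after their values were seen.

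**Figure D5:**
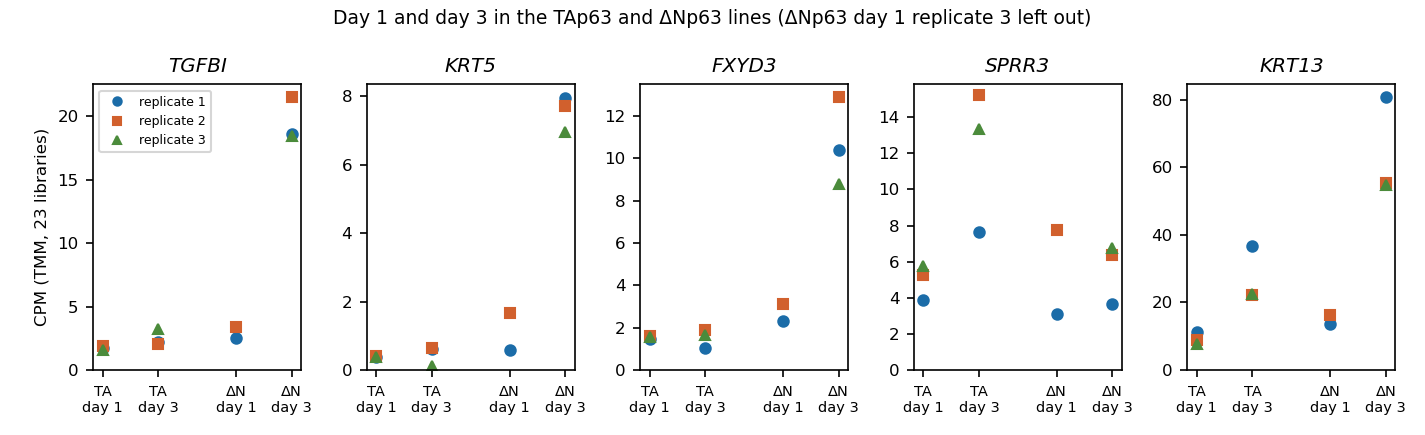
Level of 5 genes at days 1 and 3 in each library of the TAp63 (TA) and ΔNp63 (ΔN) lines, in CPM from the fit of 23 libraries (linear axes from 0, 2 libraries at ΔNp63 day 1). TGFBI, KRT5 and FXYD3 stand apart at day 3 of ΔNp63, while SPRR3 is highest at day 3 of TAp63 and KRT13 is higher at day 3 in both lines.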

How the data were processed

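RNA was sequenced from the i-TAp63 and i-ΔNp63 lines of TYUC-1. The labels' protocols give TRIzol extraction, NEBNext Ultra library preparation and Illumina NextSeq sequencing. Per the submitters' processing notes, HISAT2 2.1.0, featureCounts 1.6.1, DESeq2 and hg38 were used. The authors' counts come, per the file header, from featureCounts 2.0.0 with UCSC's hg38 refGene models, counting paired fragments over whole transcript spans without strand. Counts thus include introns, sum isoforms and are uncertain where genes overlap. The table held raw counts for 28278 genes, 6005 of them 0 throughout.

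Counts of the 12 TAp63-line libraries (days 0, 1, 3 and 6) were fitted in edgeR 4.0.16 under R 4.3.3 (genes kept by filterByExpr, TMM scaling, quasi-likelihood test, Benjamini-Hochberg over 15056 genes, called under 0.05), each group having its own mean, which leaves 8 residual degrees of freedom. The SE of a log2 change is its size divided by the square root of the F statistic. CPM are means ± SD (n = 3). ΔNp63 day 1 replicate 3, which stands apart, was left out of the fit of 23 libraries for the difference between the lines. Alternatives were DESeq2 1.42.0, other library sets, scalings and filters, and leaving out each library. No 2 replicates agreed within sampling noise (chi-square per degree of freedom 5.05 to 32.8 at days 1 and 3 of the TAp63 line).

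The labels' replicate numbers were checked for pairing. Deviations from the group mean correlated at 0.519, 0.228 and 0.435 between day 1 and day 3 libraries of the same number and at -0.466 to 0.0582 between different numbers. The numbers were therefore taken to pair the libraries, and the fit with the block is printed wherever it changes a call. Unless said otherwise, a log2 change printed without ± is that of the fit without the block. This holds also where the adjusted p beside it is that of the fit with the block.

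The comparison and the 37 gene lists were chosen with earlier results of these data known. Genes named were TP63, the 12 largest called rises above 2 CPM without overlap between the days, the 5 falls of lowest unadjusted p under the same conditions (fewer than 5 were called), up to 4 members per list called without the block, all members of the lists of genes known from earlier results, EZH2, CDKN1A, NEUROD1, SYP, MYC and VIM, and up to 5 called genes per direction for the difference between the lines. Others are marked as chosen after their values were seen. A few members of the lists are counted but not reported here by name. Promoter windows came from RefSeq (GRCh38.p14).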

Additional observations from a re-analysis of the deposited data

Results flagged for a closer look

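TGFBI differed between the lines in its change from day 1 to day 3 by a test of the difference itself: the log2 change of the TAp63 line minus that of the ΔNp63 line was -2.25 ± 0.302 (edgeR adjusted p = 0.00555, 23 libraries), with 2.17, 2.09 and 3.21 CPM in the TAp63 line at day 3 against 18.6, 21.5 and 18.4 CPM in the ΔNp63 line. All 3 TAp63 libraries lay below all 3 ΔNp63 libraries.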

How the results depend on the processing

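The 22 calls without the block were 20 with all 24 libraries (13 of the 22 among them), 74 with 23, and 9 with the 6 of the groups compared. They were 26 with DESeq2's size factors in edgeR, 19 with library totals only, 32 without a filter and 24 with a stricter one. DESeq2 called 99, and 370 with the block. The replicate block gave 290 calls with the 12 libraries, 513 with 23 and 167 with 6, all 22 kept in each. Leaving out 1 library gave 7 to 28 calls without the block (9 without day 1 replicate 3, 7 and 8 without day 3 replicates 2 and 3) and 122 to 661 with it. With the block, day 1 replicates 1, 2 and 3 left out in turn gave 661, 178 and 220, and those of day 3 gave 209, 128 and 122. The fits of the block without a library were added after seeing the data. Of 95 named genes called with the block 48 lost the call without at least 1 library. The cause of these shifts was not tested, beyond the fewer samples and genes that an alternative holds.

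Between the lines 1 gene differed, 0 with all 24 libraries (931 at an unadjusted p under 0.05, log2 difference of TGFBI -1.80), 3 with the replicate block, and 1 with DESeq2 or without a filter. Leaving out 1 library gave 0 to 1, with 0 without TAp63 day 3 replicate 2, TAp63 day 1 replicate 2 or ΔNp63 day 1 replicate 1. No named result changed sign under any alternative where it was called. Genes with few reads at day 1, such as KLK7, SLC16A12 and LINC02154, rest on 5 to 11 counts over 3 libraries, and their fold changes depend on the prior count.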
